A study of Danio rerio with 3 samples.

Results

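The ion pumps, calcium channels and potassium channels of zebrafish (Danio rerio) scales were examined. The group was made of genes whose symbol begins with atp1a, atp1b, atp2a, atp2b, cacn, calm, ryr, itpr, trpc, trpm, trpv or kcn and which had a probe set naming that gene alone. It held 41 genes with 56 probe sets, out of 8793 genes with 10795 such probe sets on the array, and where a gene had several, the one with the highest mean over the arrays stands for it. Calcium handling accounted for 20 genes and sodium and potassium for 21. Genes with the prefixes ryr and trpv were not found among these probe sets, so ryanodine receptors and TRPV channels are not analysed here.

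Scales were taken from anaesthetised zebrafish and cultured in L-15 medium at 15 °C for 6 h with 1 nM 3-hydroxybenzo[c]phenanthrene (3-OHBcP), with 1 nM benzo[c]phenanthrene (BcP), a polycyclic aromatic hydrocarbon, or, as the control, with neither compound. The compounds differ by a hydroxyl group, and the study's title asks how such hydrocarbons act on the bone-forming and bone-resorbing cells of scales. RNA of each group was read on 1 Affymetrix Zebrafish Genome array, so no difference below has a replicate check, no test was made and no interval can be given. The sources used here do not give strain, age, how many fish or scales a sample held, or whether the control medium held a solvent.

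Cells keep calcium low in the cytosol and high in the endoplasmic reticulum and outside the cell. SERCA pumps, encoded by atp2a genes, move calcium into the reticulum, and plasma membrane calcium pumps, encoded by atp2b genes, push it out of the cell, while calmodulin binds calcium and passes the signal on. The Na,K-ATPase, made of an alpha subunit that pumps and a beta subunit that takes it to the membrane, exchanges sodium for potassium, and potassium channels then set the membrane voltage. Scales are bony skin plates from which fish can draw calcium, and the epidermis that covers them faces the water.

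Values are log2 signals as the authors deposited them. A gene counted as above the level filter when its mean over the arrays reached a log2 signal of 5.35, the median over all probe sets other than controls. This filter is no detection call. Because probe sets bind with different strength, a higher signal for one gene than for another was not read as more RNA. Of the 41 genes, 16 (39.0%) were above the filter, against 5248 of all 8793 genes (59.7%). Those above it were 6 of 13 Na,K-ATPase genes, 4 of 8 calcium pump genes, both calmodulin genes, 1 of 2 genes with the prefix itpr, both genes with the prefix trpc and trpm7. All 5 voltage-gated calcium channel genes and all 8 potassium channel genes were below it. Nearest to the filter lay atp1a3b on its upper side (mean 5.52) and cacnb2b on its lower side (mean 4.81).

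**Figure D1:**
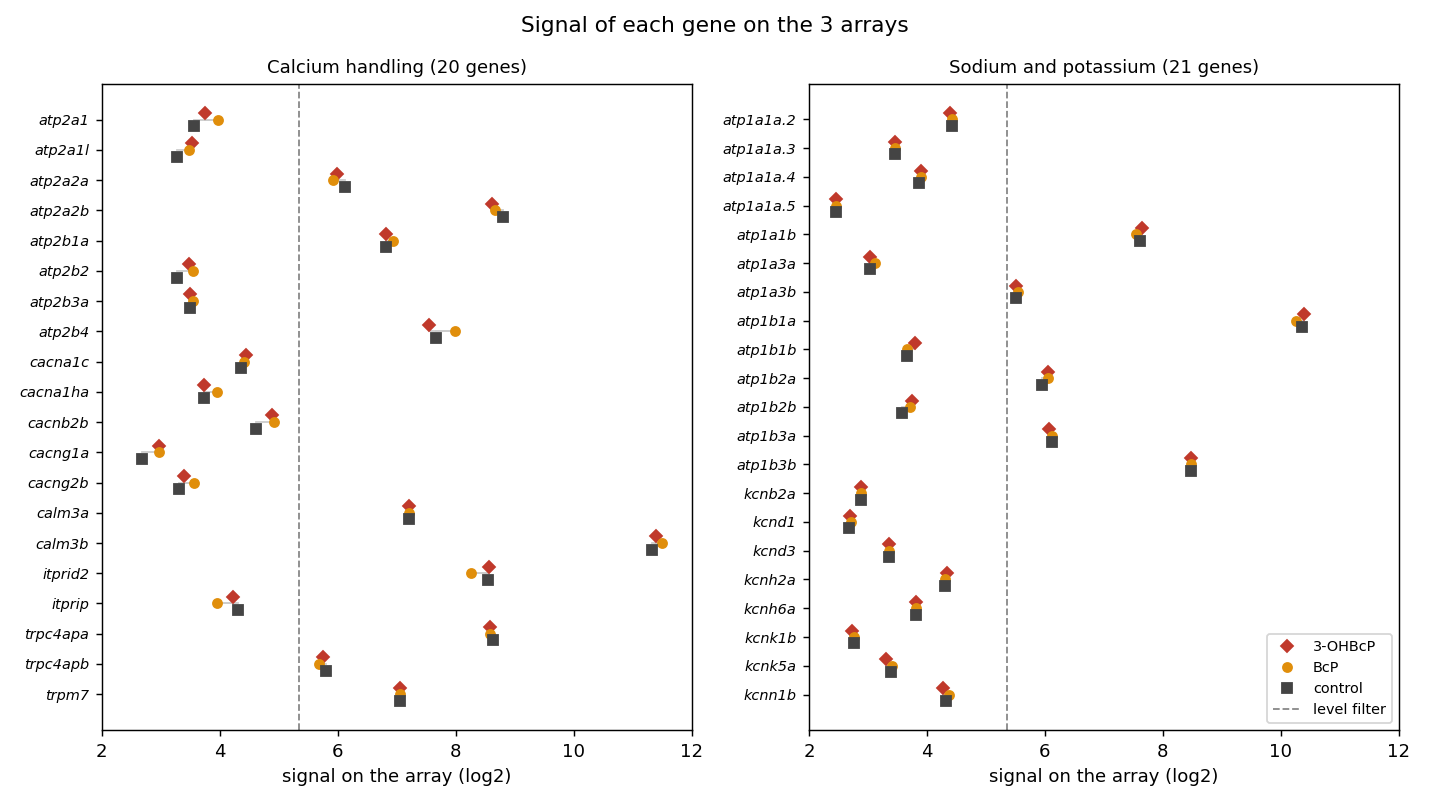
Log2 signal (x axis) of each of the 41 genes (rows) on the 3-OHBcP, BcP and control arrays, 1 point per array, with calcium handling on the left and sodium and potassium on the right. The dashed line is the level filter at 5.35, and the 5 cacn genes and 8 kcn genes lie to its left on every array. Positions along the axis can be compared within a row and not between rows.

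The arrays had medians of 5.35 (3-OHBcP), 5.37 (BcP) and 5.32 (control) and correlations of 0.998 across probe sets in each pairing. The lower quartile of the signal was 3.83, 3.84 and 3.77 in the same order, so dim probe sets read slightly higher on both treated arrays. Control probe sets set the arrays apart more. For the 18 hybridisation spike probe sets, whose targets go onto each array at set amounts, the median log2 difference from the control was 0.08 with 3-OHBcP and 0.29 with BcP, and the value with BcP is about as large as the differences of atp2b4, itprid2 and the dim calcium genes given below. The log2 gap between 3' and 5' probe sets for GAPDH, which reflects RNA quality and labelling, was 2.03 with 3-OHBcP, 2.15 with BcP and 2.45 in the control. The part of these array differences in the values below was not tested. Among markers of the tissue, 9 of 9 epidermal, 8 of 10 osteoblast and 4 of 5 osteoclast genes found on the array were above the filter. For other cell types this held for 3 of 12 skeletal muscle genes, 1 of 7 neuronal genes, 1 of 4 ionocyte genes and 0 of 4 pigment cell genes. In whole scales, a change in the number of cells of a type cannot be told apart from a change in RNA per cell.

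Among the 10 calcium handling genes above the filter, the plasma membrane pump gene atp2b4 stood farthest from the control, and it did so with BcP. Its log2 signal was 7.54 with 3-OHBcP, 7.99 with BcP and 7.66 on the control array. It was thus 1.25-fold higher with BcP than in the control (log2 difference 0.32), and slightly lower with 3-OHBcP (-0.12). Between the compounds, atp2b4 was 1.36-fold lower with 3-OHBcP than with BcP (-0.45). A second probe set of the gene gave the same order, at 6.37 with 3-OHBcP, 6.76 with BcP and 6.55 in the control. Its differences were -0.18 for 3-OHBcP and 0.21 for BcP against the control and -0.39 between the compounds. It carries the same target name as the first, so it may not be an independent reading. The first is of a kind that may match several transcripts. With all probe sets of atp2b4 averaged, the difference with BcP was 0.19, short of 1.2-fold. The dimmest probe set, with another target name, read 3.80 with 3-OHBcP, 3.80 with BcP and 3.77 in the control. It differed by 0.03 with each compound and by 0 between them.

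The other plasma membrane pump gene above the filter, atp2b1a, differed little. It read 6.82 with 3-OHBcP, 6.93 with BcP and 6.82 in the control, which is equal with 3-OHBcP and 0.11 higher with BcP. A second probe set of atp2b1a differed by 0.06 with 3-OHBcP and went the other way with BcP (-0.04), and the dimmest, at a mean of 2.97, differed by -0.15 with 3-OHBcP and 0.05 with BcP. The direction for atp2b1a thus depended on the probe set.

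The SERCA genes above the filter were lower than the control on both treated arrays, and also after quantile normalization. Centring lowers every difference from the control, and adding 32 to the linear signal cannot turn a sign. Neither of these settings could therefore change this direction. Of all genes above the filter, 41.9% were lower than the control with 3-OHBcP and 37.1% with BcP, both as deposited. The gene atp2a2b read 8.62 with 3-OHBcP, 8.66 with BcP and 8.80 in the control, with differences of -0.18 and -0.14. Its paralogue atp2a2a read 5.98 with 3-OHBcP, 5.92 with BcP and 6.12 in the control, with differences of -0.14 and -0.20. These genes are counterparts of mammalian ATP2A2, the SERCA pump of most tissues. The second probe set of atp2a2a showed no such step, at 5.59 with 3-OHBcP, 5.56 with BcP and 5.56 in the control. None of these differences reached 1.2-fold.

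Both calmodulin genes stayed within 1.2-fold of the control. The calmodulin gene calm3a held the same deposited value, 7.20, on all 3 arrays. The gene calm3b read 11.38 with 3-OHBcP, 11.49 with BcP and 11.32 in the control, a difference of 0.06 with 3-OHBcP and 0.17 with BcP. Zebrafish calmodulin genes are very similar in sequence, and reads of one probe set may include RNA of its paralogues.

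The genes caught by the prefixes itpr and trpc that were on the array encode partners of channels and not the channels. Among them, itprid2 was the other calcium gene past 1.2-fold. In mammals its protein binds inositol trisphosphate receptors, the calcium release channels of the endoplasmic reticulum. It read 8.57 with 3-OHBcP, 8.26 with BcP and 8.54 in the control. It was 1.21-fold lower with BcP than in the control (-0.28) and close to the control with 3-OHBcP (0.03), and it was 1.24-fold higher with 3-OHBcP than with BcP (0.30). It had 1 probe set, so no second reading was at hand, and its difference with BcP was -0.24 after quantile normalization, short of 1.2-fold.

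The TRPC4-associated protein genes showed small differences. The gene trpc4apa read 8.58 with 3-OHBcP, 8.58 with BcP and 8.62 in the control. The gene trpc4apb read 5.75 with 3-OHBcP, 5.69 with BcP and 5.81 in the control, a difference of -0.06 with 3-OHBcP and -0.12 with BcP. Its 4 probe sets spread widely with BcP. One of them, of a kind that may match several transcripts, read 5.52 with 3-OHBcP, 5.24 with BcP and 5.78 in the control. Its differences were -0.26 and -0.54, whereas another of the same kind differed by 0 with 3-OHBcP and 0.01 with BcP. The dimmest, at a mean of 4.50, differed by -0.08 with 3-OHBcP and -0.17 with BcP.

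The magnesium and calcium channel gene trpm7, which encodes a channel fused to a kinase and whose loss in zebrafish disturbs skeleton and pigment cells, read 7.05 on every array. Its second probe set read 5.39 on every array. Exact ties of this kind were common, and 18.6% of all genes above the filter held 1 value on all 3 arrays, so a tie is no precise measure of equality. Of the 16 ion genes above the filter, calm3a and trpm7 were tied in this way.

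The 6 Na,K-ATPase genes above the filter stayed within 1.2-fold in every comparison, by the probe set that stands for each. Of all genes above the filter, 6.88% were at least that far apart with 3-OHBcP, 9.13% with BcP and 6.92% between the compounds. The pumping subunit gene atp1a1b read 7.64 with 3-OHBcP, 7.54 with BcP and 7.61 in the control, with differences of 0.03 and -0.08. The other alpha subunit gene, atp1a3b, whose mammalian counterpart is mainly neuronal, read 5.52 with 3-OHBcP, 5.54 with BcP and 5.52 in the control. For both alpha subunit genes, no pair of arrays was more than 0.11 apart.

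The beta subunit genes were also within 1.2-fold by the probe set that stands for each. The gene atp1b1a read 10.40 with 3-OHBcP, 10.26 with BcP and 10.35 in the control, and its difference of 0.14 between 3-OHBcP and BcP was the widest of the 6 genes. Its second probe set differed by 0.02 between the compounds. The gene atp1b3b read 8.47 on all arrays to 2 decimals, with differences below 0.01, and atp1b3a read 6.06 with 3-OHBcP, 6.11 with BcP and 6.11 in the control. The second probe set of atp1b3a, at a mean of 4.74, differed by 0.20 with 3-OHBcP and 0.18 with BcP.

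The beta subunit gene atp1b2a had probe sets that did not read alike. The one that stands for the gene read 6.05 with 3-OHBcP, 6.05 with BcP and 5.95 in the control, 0.10 higher with each compound. The second read 5.53 with 3-OHBcP, 5.73 with BcP and 5.43 in the control, 1.23-fold higher with BcP. Another was tied at 4.41 on all arrays and the dimmest differed by 0.08 with 3-OHBcP and 0.07 with BcP.

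**Figure D2:**
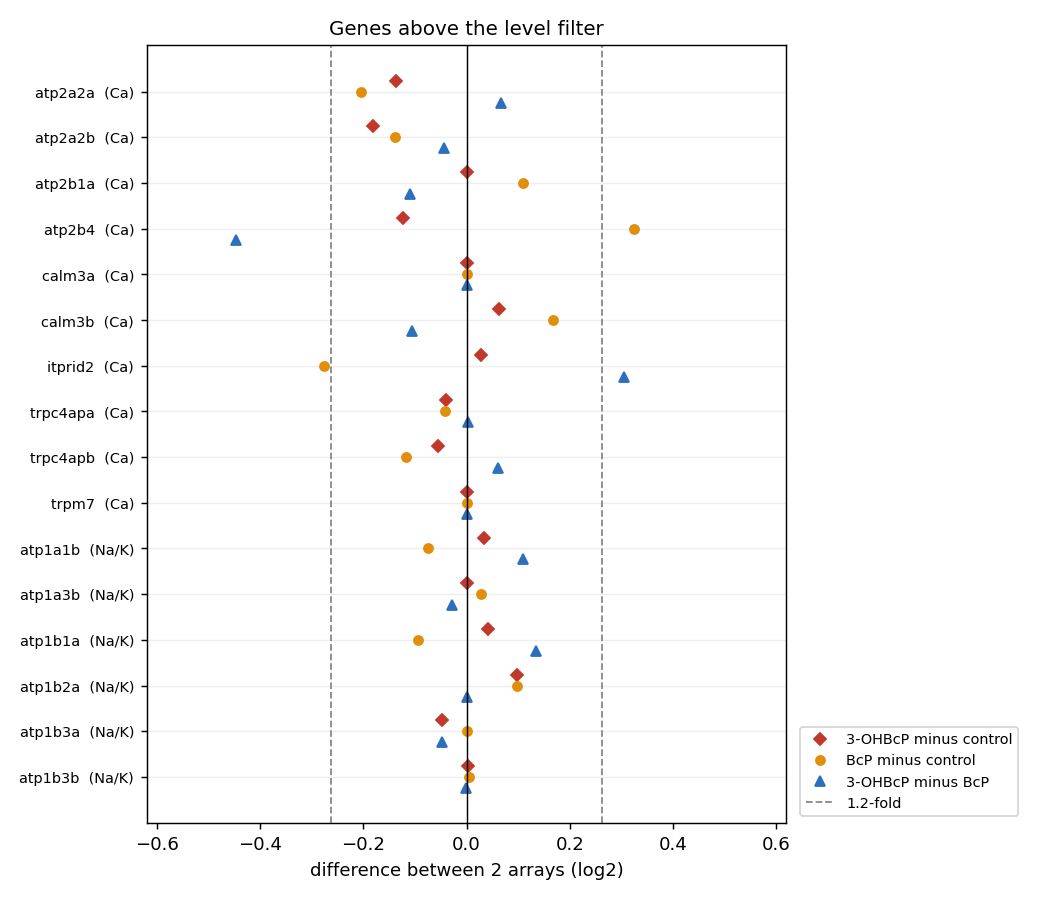
Log2 difference between 2 arrays (x axis) for the 16 genes above the level filter (rows), with diamonds for 3-OHBcP minus control, circles for BcP minus control and triangles for 3-OHBcP minus BcP. Dashed lines mark 1.2-fold, and atp2b4 and itprid2 are the genes that cross them.

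Counted over the 16 genes, 0 were at least 1.2-fold from the control with 3-OHBcP, where 6.88% of all 5248 genes above the filter were that far apart. With BcP 2 of 16 were, 1 higher (atp2b4) and 1 lower (itprid2), where the background was 9.13%, with 2.93% higher and 6.19% lower. Between 3-OHBcP and BcP 2 of 16 were, itprid2 higher and atp2b4 lower, where the background was 6.92%, with 3.49% higher and 3.43% lower. None of the 16 was 1.5-fold apart in any of the 3 comparisons, where 0.21% of all genes were with 3-OHBcP, 0.705% with BcP and 0.61% between the compounds. At this number of genes, 2 of 16 is not far from the background.

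The direction was mixed as well. Among the calcium handling genes, 2 genes were higher and 5 lower with 3-OHBcP and 3 higher and 5 lower with BcP, with medians of -0.02 in both comparisons. Among the sodium and potassium genes, 4 were higher and 1 lower with 3-OHBcP and 3 higher and 2 lower with BcP, with medians of 0.02 and 0.0023. Over all genes above the filter, 25.4% were higher and 41.9% lower with 3-OHBcP, and 37.7% higher and 37.1% lower with BcP. Their median was 0 in each comparison. The comparisons with the control share its array, so the resemblance of their differences is not a result. Between the compounds at the same dose and time, a single pair of arrays, the calcium handling genes had a median of 0 and the sodium and potassium genes of -0.00067.

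**Figure D3:**
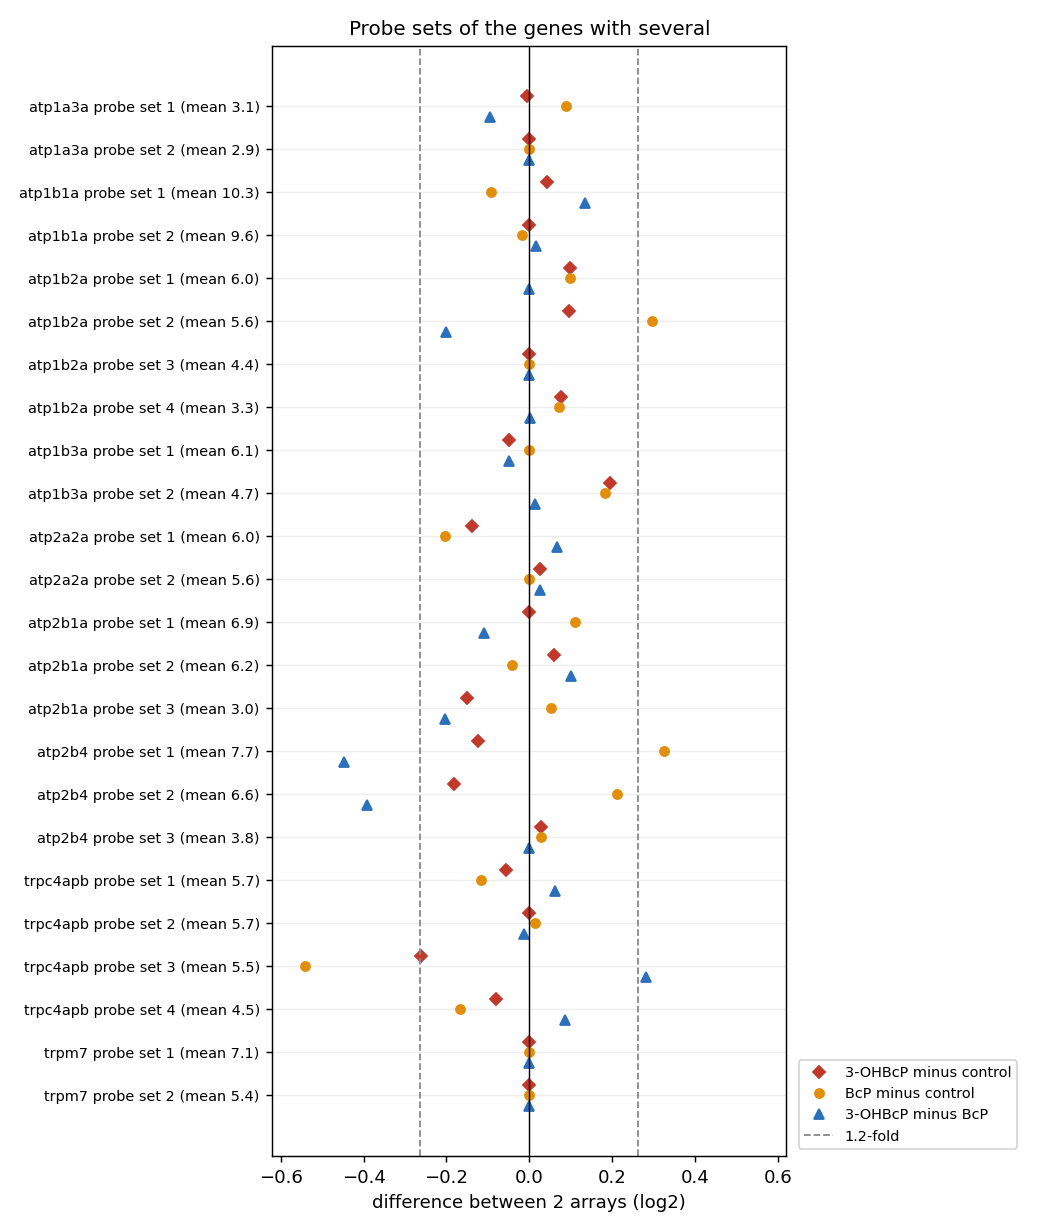
Log2 difference between 2 arrays (x axis) for every probe set of the 9 genes with at least 2 probe sets (rows, with the mean log2 signal in brackets), with the same symbols for the 3 comparisons and dashed lines at 1.2-fold. The first 2 probe sets of atp2b4 lie on the same side in each comparison, while those of atp1b2a and trpc4apb are spread out.

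Differences between 2 probe sets of a gene give a scale for these values. Over 638 genes with at least 2 probe sets above the filter, the gap between the 2 brightest was 0.094 at the median and 0.29 at the 90th percentile for 3-OHBcP against the control. For BcP it was 0.099 and 0.32, and between the compounds 0.069 and 0.21. The difference of atp2b4 with BcP, 0.32, is as large as that 90th percentile, and its difference between the compounds, -0.45, is larger in size. This scale is a gap between 2 differences and holds probe effects and no spread between samples. The gene atp2b4 was also singled out as the farthest of 16 genes, so its place on the scale does not measure how unusual it is.

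Of the 25 ion genes below the filter, none reached 1.5-fold in any comparison, where 0.113% of all genes below the filter did with 3-OHBcP, 0.282% with BcP and 0.197% between the compounds, and the values given for them here were singled out after they were seen. The voltage-gated calcium channel genes and the dim calcium pump genes read higher with BcP than in the control in 9 of 9 cases as deposited. This was 8 with each array centred on its median (atp2b3a turned) and 7 after quantile normalization (cacna1c too). Over all genes below the filter, 52.1% were higher and 14.9% lower with BcP as deposited. Their median was -0.037 after centring and -0.035 after quantile normalization. The 9 were grouped after the values were seen and leave out itprip, the dim calcium handling gene that was lower (-0.36). The gene atp2a1, the SERCA pump of fast skeletal muscle, read 3.74 with 3-OHBcP, 3.97 with BcP and 3.57 in the control, 1.32-fold higher with BcP. Its relative atp2a1l read 3.52 with 3-OHBcP, 3.48 with BcP and 3.27 in the control. The plasma membrane pump gene atp2b2, found mainly in neurons and sensory cells of mammals, read 3.48 with 3-OHBcP, 3.55 with BcP and 3.27 in the control, while atp2b3a differed by 0 with 3-OHBcP and 0.04 with BcP.

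Of the channel genes, cacnb2b, for an auxiliary beta subunit, read 4.89 with 3-OHBcP, 4.91 with BcP and 4.61 in the control, with differences of 0.28 and 0.30. The gene cacng1a, for the gamma subunit of the muscle channel, read 2.96 with 3-OHBcP, 2.96 with BcP and 2.69 in the control. The gene cacng2b, whose mammalian counterpart serves glutamate receptors of neurons, read 3.40 with 3-OHBcP, 3.57 with BcP and 3.30 in the control. For the pore subunit genes, cacna1c of L-type channels differed by 0.08 with 3-OHBcP and 0.06 with BcP, and cacna1ha of T-type channels by 0 and 0.22. The receptor-partner gene itprip was the exception, at 4.21 with 3-OHBcP, 3.95 with BcP and 4.31 in the control, 1.28-fold lower with BcP than in the control and 0.26 higher, on the log2 scale, with 3-OHBcP than with BcP.

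**Figure D4:**
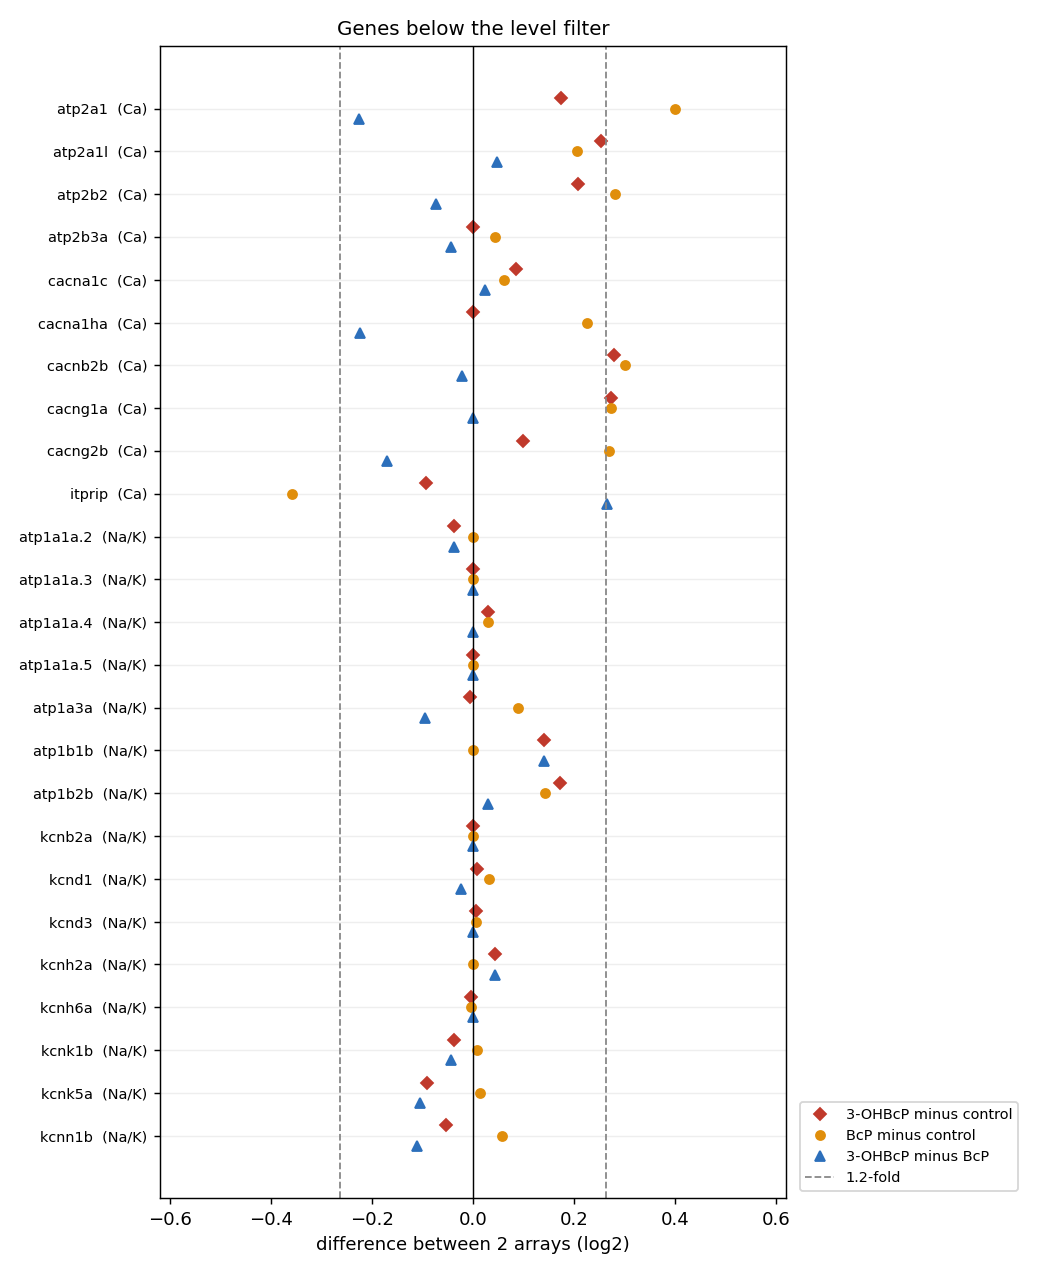
Log2 difference between 2 arrays (x axis) for the 25 genes below the level filter (rows), with diamonds for 3-OHBcP minus control, circles for BcP minus control and triangles for 3-OHBcP minus BcP. With BcP, 9 of 10 calcium handling genes and 8 of 15 sodium and potassium genes lie right of 0. Over all genes below the filter, 52.1% were higher with BcP. The 15 sodium and potassium genes lie between -0.0032 and 0.14 in that comparison.

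In counts, 7 of these 10 dim calcium handling genes were higher and 1 lower with 3-OHBcP, and 9 were higher and 1 lower with BcP. At least 1.2-fold from the control were 2 with 3-OHBcP, where 7.56% of all 3545 genes below the filter were, and 6 with BcP, 5 of them higher, where 11.1% were, 8.86% higher and 2.23% lower. Between the compounds 1 of 10 was, where the background was 3.55%. Their median difference was 0.14 with 3-OHBcP and 0.25 with BcP, and that of all genes below the filter was 0 and 0.0093. Genes below the filter as a whole leaned upward too, with 1677 higher and 553 lower with 3-OHBcP and 1846 higher and 527 lower with BcP. The counts were sensitive to centring, and the medians less so, while adding 32 to the linear signal lowered both. After centring each array on its median, the counts were 0 with 3-OHBcP, where 6.77% of all genes below the filter were called, and 2 with BcP, 1 higher and 1 lower, where 8.94% were. The medians were then 0.11 with 3-OHBcP and 0.20 with BcP, against -0.028 and -0.037 over all genes below the filter. With 32 added to the linear signal, which damps dim probe sets, the counts were 0 and 0. Only 0.23% of all genes below the filter were then called with 3-OHBcP and 0.31% with BcP, so 0 of 10 says little of these genes. The medians fell to 0.041 with 3-OHBcP and 0.059 with BcP.

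Several marker lists leaned upward against the control as well. Over all genes above the filter, 25.4% were higher and 41.9% lower with 3-OHBcP, and 37.7% and 37.1% with BcP. Below it, 47.3% were higher and 15.6% lower with 3-OHBcP, and 52.1% and 14.9% with BcP. Most muscle, neuronal and pigment cell markers were below the filter, where genes as a whole leaned upward. Of 10 osteoblast markers, 8 were higher and 0 lower with 3-OHBcP and 10 higher and 0 lower with BcP, with medians of 0.21 and 0.24, and their summed linear signal was 25654.5 with 3-OHBcP, 25405.2 with BcP and 20898.1 in the control. In the deposited values, of 12 skeletal muscle markers, 9 were higher and 1 lower with 3-OHBcP and 10 higher and 0 lower with BcP, and their summed linear signal was 498 with 3-OHBcP, 580 with BcP and 493 in the control. Among them, ckmb, the muscle creatine kinase gene, read 5.02 with 3-OHBcP, 5.18 with BcP and 4.81 in the control, and acta1a, the skeletal actin gene, was tied at 4.73. The muscle marker that was lower with 3-OHBcP, mb, read 7.58 with 3-OHBcP, 8.03 with BcP and 7.75 in the control. It had the highest signal of the muscle list. A summed linear signal leans on the brightest genes of a list and need not describe the others. Of 7 neuronal markers, 5 were higher with 3-OHBcP and 6 with BcP, with summed signals of 166 with 3-OHBcP, 172 with BcP and 152 in the control, and snap25b was tied at 2.93. Of 4 pigment cell markers, 3 were higher and 0 lower with 3-OHBcP and 2 higher and 0 lower with BcP. Of 5 osteoclast markers, 1 was higher and 2 lower with 3-OHBcP and 3 higher and 0 lower with BcP. Epidermal markers, 9 in number, had 2 higher and 2 lower with 3-OHBcP and 1 higher and 4 lower with BcP. The 4 ionocyte markers had 2 higher and 1 lower with each compound. The part of any of these cell types or of dim-signal shifts in the differences of the calcium genes was not tested.

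Potassium channel genes stayed close to the control. For the 8 genes the widest difference between any pair of arrays was 0.11, with medians of -0.0016 for 3-OHBcP and 0.0065 for BcP against the control. The A-type channel genes kcnd1 and kcnd3, the delayed rectifier gene kcnb2a and the ERG-family genes kcnh2a and kcnh6a differed by at most 0.04 from the control. The leak channel genes kcnk1b and kcnk5a and the calcium-activated channel gene kcnn1b differed between 3-OHBcP and BcP by -0.04, -0.10 and -0.11. Their signals ran from 2.69 (kcnd1) to 4.38 (kcnn1b) over the arrays, near the low end of the array's range.

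The 7 dim Na,K-ATPase genes stayed within 1.2-fold of the control, with differences from -0.039 to 0.17. Of all genes below the filter, 7.56% were at least that far from the control with 3-OHBcP and 11.1% with BcP. The tandem alpha subunit genes atp1a1a.3 and atp1a1a.5 were tied on all arrays at 3.46 and 2.46, atp1a1a.2 differed by -0.04 with 3-OHBcP and 0 with BcP, and atp1a1a.4 by 0.03 with each compound. The remaining alpha subunit gene, atp1a3a, differed by -0.0053 with 3-OHBcP and 0.09 with BcP. The beta subunit gene atp1b2b read 3.75 with 3-OHBcP, 3.72 with BcP and 3.57 in the control, and atp1b1b read 3.80 with 3-OHBcP, 3.66 with BcP and 3.66 in the control. By the probe set that stands for each gene, no sodium or potassium gene, above or below the filter, was 1.2-fold apart in any of the 3 comparisons. The second atp1b2a probe set was the exception among the others. Without the filter, 7.15% of all genes were called with 3-OHBcP, 9.92% with BcP and 5.56% between the compounds. At 21 genes, a count of 0 is not far from that background.

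Of the further genes of these pathways found on the array, a smaller share was above the filter than the 59.7% of all genes. A list of 85 further calcium genes (exchangers, store-operated channels, binding proteins, hormones, kinases and calcineurin) had 36 on the array and 15 above the filter. Of these 15, 1 was at least 1.2-fold from the control with 3-OHBcP and 1 with BcP, where the background was 6.88% and 9.13%. The calcineurin regulator gene rcan3 read 6.37 with 3-OHBcP, 6.48 with BcP and 6.73 in the control, a difference of -0.35 and -0.25. The calcineurin catalytic subunit gene ppp3cca read 6.73 with 3-OHBcP, 6.98 with BcP and 6.70 in the control, a difference of 0.03 and 0.28. The median of these 15 was 0 in each comparison. Over all 36 found, 1 was at least 1.2-fold higher and 1 lower with 3-OHBcP. With BcP 2 were higher and 0 lower. Without the filter, 7.15% and 9.92% of all genes were called. Below the filter, pvalb4 differed by 0.27 with 3-OHBcP and 0.23 with BcP, and pvalb9 by 0.25 and 0.38.

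A list of 80 further sodium, potassium and chloride genes had 25 on the array and 10 above the filter, with 2 higher and 2 lower by 1.2-fold with 3-OHBcP and 1 higher and 2 lower with BcP, where 6.88% and 9.13% of all genes above the filter were called. The volume-regulated anion channel gene lrrc8c read 5.55 with 3-OHBcP, 5.38 with BcP and 5.96 in the control, with differences of -0.41 and -0.57. The gene of the essential subunit of that channel, lrrc8aa, read 6.00 with 3-OHBcP, 6.44 with BcP and 6.47 in the control, with differences of -0.47 and -0.03 and of -0.44 between the compounds. The ubiquitin ligase gene nedd4l, whose mammalian counterpart removes epithelial sodium channels, was higher with both compounds, at 6.12 with 3-OHBcP, 6.14 with BcP and 5.79 in the control. The potassium-chloride cotransporter genes went apart, with slc12a4 at 0.27 and 0.17 and slc12a7b at -0.15 and -0.40 for 3-OHBcP and BcP against the control. The gene slc12a4 read 5.48 with 3-OHBcP, 5.38 with BcP and 5.21 in the control. Its control value lay below the filter of 5.35, so it passed only through the treated arrays. Its place among the 2 genes counted as higher with 3-OHBcP thus leans on the filter. Over all 25 found, 5 were at least 1.2-fold higher and 2 lower with 3-OHBcP, and 4 higher and 2 lower with BcP. Without the filter, 7.15% and 9.92% of all genes were called. Below the filter, slc12a3 differed by 0.29 with 3-OHBcP and 0.41 with BcP, clcn4 by 0.40 and 0.41, and scn8aa by 0.31 and 0.30.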

How the data were processed

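For every array the authors deposited a single value per probe set, read here as log2 signal from its range. The submitters' processing notes name Affymetrix Expression Console, and the sources used here give neither its version nor its summarization and normalization. The deposited log2 values were used unchanged. Per the labels' protocols, total RNA was labelled with a 3' in vitro transcription kit.

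Of 15617 probe sets, 115 controls were left out. The platform annotation named 1 gene for 10795, several for 135 and none for 4572, and 10711 symbols, all 41 of the members among them, were found by gene identifier in a RefSeq table that served only to update names, and coordinates are left out. The members, lists and the 1.2-fold and 1.5-fold thresholds were chosen with earlier results of these data known. Named with values by rule were genes above the filter past 1.2-fold and those of the pump, calmodulin, itpr and trpv families. Other members are named with values or ranges, outside that rule. With 1 array per group, log2 differences, counts and medians were described with no test, and the number of arrays limits the precision. Counting was tested on simulated data. Python 3.11.15, pandas 2.3.3 and numpy 2.4.6 were used.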

Additional observations from a re-analysis of the deposited data

Results flagged for a closer look

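Among the 16 ion genes above the level filter, 2 lay on opposite sides of the shared control array with the 2 compounds and at least 1.2-fold apart between them. The share of all genes that meet this joint rule was not counted, so 2 of 16 has no background here. The difference between the compounds was not tested, since each compound has 1 array. The plasma membrane calcium pump gene atp2b4 differed by -0.12 with 3-OHBcP and 0.32 with BcP against the control, and by -0.45 between 3-OHBcP and BcP. The inositol trisphosphate receptor partner gene itprid2 differed by 0.03 with 3-OHBcP and -0.28 with BcP, and by 0.30 between 3-OHBcP and BcP. With each array centred on its median, its difference with 3-OHBcP was -0.00058, below the control like that with BcP.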

How the results depend on the processing

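No paired analysis was possible because each group has 1 array and no replicate numbers. Above the filter, the count of genes at least 1.2-fold apart with BcP, 2 as reported, fell to 1 under some settings. The gene left was not always the same. Quantile normalization left atp2b4, which was higher, where 8.39% of all genes above the filter were called. Adding 32 to the linear value left atp2b4 too, where 5.32% were. Averaging each gene's probe sets left itprid2, which was lower, of 14 genes above the filter, where 8.29% of all genes were called. Dropping probe sets that may match more than 1 transcript also left itprid2, where 9.18% were. With no level filter the count with BcP was 8 of 41, where 9.92% of all 8793 genes were called. The count with 3-OHBcP was then 2 of 41 in place of 0 of 16, where 7.15% were. With BcP, atp2b4 differed by 0.19 under that averaging and by 0.21 without such probe sets. The small medians changed sign easily. For sodium and potassium genes, centring each array gave -0.0096 with 3-OHBcP, -0.044 with BcP and 0.017 between the compounds, the filter at the 75th percentile gave -0.075 with BcP and 0.11 between the compounds, and quantile normalization gave 0.010 between the compounds. For calcium genes, quantile normalization gave 0.026 with 3-OHBcP and 0.0087 with BcP, and no level filter gave 0.086 with BcP. Centring shifted the median of all genes above the filter by -0.028 with 3-OHBcP and -0.046 with BcP. Centring moves every difference of a comparison by 1 constant, so the sign changes under it are arithmetic. The other level filters changed which genes were counted. For quantile normalization the cause of the sign changes was not tested.

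For the calcium genes below the filter, a set of results added after seeing the data, the count at 1.2-fold was 0 with 3-OHBcP and 2 with BcP both after centring (6.77% and 8.94% of all genes below the filter) and after quantile normalization (6.23% and 8.46%). The medians were 0.11 and 0.20 after centring and 0.084 and 0.18 after quantile normalization, against 0.14 and 0.25 as deposited. Adding 32 to the linear value, which damps dim signals by construction, gave counts of 0 with 3-OHBcP, 0 with BcP and 0 between the compounds. Of all genes below the filter, 0.23%, 0.31% and 0.17% were then called. The medians were 0.041 with 3-OHBcP and 0.059 with BcP. A further setting, also chosen after seeing the data, took away the median difference of genes of like signal. The count with BcP was then 4, with 3 higher and 1 lower. Under this setting 10.01% of all 3545 genes below the filter were called with BcP. The median of the calcium genes with BcP was 0.21. Of 432 recalculated differences of single genes above the filter, 427 moved by no more than the median gap between probe sets of a gene. The other 5 moved more, 4 under averaging of probe sets and 1 without those that may match more than 1 transcript. None that was past 1.2-fold changed sign. Much of this count was fixed in advance and is no measure of stability. A change of level filter cannot alter these differences, the platform's own symbols left them unchanged, and centring shifts a whole comparison by 1 constant smaller than that gap. Dim signals limit what can be said of the channel genes.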

Other observations

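Another 5 probe sets list 7 gene symbols each, 6 of them calmodulin genes, and were outside the comparisons because they name no single gene. Their differences ran from -0.099 to 0.028 both with 3-OHBcP and with BcP against the control. Between 3-OHBcP and BcP, 4 of the 5 held the same value and the other differed by -0.064.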
